A study of Homo sapiens with 4 samples.

Results

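Genes of glycolysis and of the hypoxia response were followed through 4 RNA-seq libraries of MDA-MB-231, a widely used cell line of human breast cancer of the triple-negative type. The 38 genes were chosen by name from the 58735 genes of the deposited count table, and all 38 were found and passed the filter on low counts, as did 14585 genes in all. They fall into 2 glucose transporters, 16 enzymes from hexokinase to lactate dehydrogenase, 5 regulatory kinases, 2 alpha subunits of the hypoxia-inducible factors (HIF) and 13 HIF targets outside glycolysis. The title of the series concerns heterogeneity of dormancy, and the comparisons here are of slow-cycling cells with Bulk cells and of slow-cycling cells with each other.

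All 4 groups came from TetOn-H2BeGFP transduced cells, which make a histone H2B-eGFP fusion on doxycycline. They were grown in high-glucose medium with serum, given doxycycline at 5 μg/ml for 3 days, stained with the Claret and Violet dyes, and chased for 12 days. Label is halved at each division, so cells that keep it have divided little. The Claret, eGFP and Violet groups are the top 1% of cells for the respective label, and Bulk cells were sorted through no fluorescence gate. Bulk was therefore exposed to the same doxycycline, dyes and chase as the others, and whether the line is 1 clone was not given in the sources used here. The oxygen tension of the cultures was not among the labelled variables. Each group is 1 library, so no difference below has a replicate check, and variation between cultures and sorts was not measured. Groups follow the sample titles, and the columns of the deposited counts and FPKM are named for the same groups as the titles. In every sample the treatment field names another sort than the title does: the library titled Bulk is given there as Claret, Claret as eGFP, H2B-eGFP as Violet, and Violet as un-gated. Every direction against Bulk rests on the titles and column names.

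Glycolysis splits glucose into pyruvate in the cytosol, and lactate dehydrogenase turns pyruvate into lactate while regenerating NAD+. HIF is a pair of an oxygen-labile alpha subunit and a stable beta subunit. Prolyl hydroxylases of the EGLN family mark the alpha subunit for destruction when oxygen is present, and when oxygen is short the pair binds a core motif of letters ACGTG or GCGTG near its targets. Most glycolytic enzymes are known HIF targets, and so are genes of angiogenesis, pH control, mitophagy and collagen hydroxylation. Tumour cells often run glycolysis with oxygen present, and MDA-MB-231 is known as a strongly glycolytic line. Because enzymes and other HIF targets share a regulator, their values were set side by side.

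The HIF core motif was searched on both strands in the 250 bases before each RefSeq start (GRCh38.p14), as ACGTG or GCGTG and their complements CACGT and CACGC, each counted where they overlap. RefSeq windows were matched by symbol for 33 of the 38 genes, and not for SLC2A3, PFKFB2, VEGFA, BNIP3L and NDRG1. At least 1 match was present for 28 of these 33 genes, and in 35 of their 57 windows (61.4%). Over all 35116 windows of the table the share was 43.2%. By class, 14 of 16 enzymes had a match in some window, as did 8 of 10 HIF targets outside glycolysis. A gene with several windows has more chances of a match, and the share by gene over all genes was not computed. The counts by gene therefore have no background. By window the shares were 52.8% of 36 for the enzymes and 81.8% of 11 for those targets. The enzyme share is weighed down by HK1 and PFKM, which have many windows, most of them without a match. Some of these windows start only a few bases apart, so the 2 shares do not compare the classes evenly. A match is a description of the letters and not a binding site. No match was found for SLC2A1, PGAM1, PKM, EGLN3 and P4HA2, of which all but P4HA2 were below Bulk in every slow-cycling library. Of all 38 members, 23 were below Bulk in all 3, and a link of matches to direction was not tested. The 4 sequences below were chosen as examples of windows with a match, 3 from glycolytic genes (LDHA, HK2, PFKFB3) and 1 from a target outside the pathway (BNIP3). All 4 genes were below Bulk in every slow-cycling library, so the choice shows nothing about matches and direction. They run 5′ to 3′ on the strand of the gene, with motif letters in capitals, and end at the RefSeq start or where an annotated exon begins.
LDHA, chr11:18394313-18394387, plus strand: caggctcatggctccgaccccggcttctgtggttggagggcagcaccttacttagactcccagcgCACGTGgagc
HK2, chr2:74834920-74835169, plus strand: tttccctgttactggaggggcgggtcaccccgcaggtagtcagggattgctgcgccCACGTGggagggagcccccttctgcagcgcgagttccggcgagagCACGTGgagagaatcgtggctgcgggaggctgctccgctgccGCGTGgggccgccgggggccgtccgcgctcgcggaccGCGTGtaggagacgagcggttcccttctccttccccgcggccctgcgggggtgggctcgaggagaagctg
PFKFB3, chr10:6144671-6144920, plus strand: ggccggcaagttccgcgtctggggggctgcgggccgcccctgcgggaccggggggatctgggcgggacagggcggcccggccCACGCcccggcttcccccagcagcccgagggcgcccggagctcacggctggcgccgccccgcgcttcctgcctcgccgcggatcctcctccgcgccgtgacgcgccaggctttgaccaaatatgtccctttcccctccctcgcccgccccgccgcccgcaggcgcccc
BNIP3, chr10:131982014-131982173, minus strand: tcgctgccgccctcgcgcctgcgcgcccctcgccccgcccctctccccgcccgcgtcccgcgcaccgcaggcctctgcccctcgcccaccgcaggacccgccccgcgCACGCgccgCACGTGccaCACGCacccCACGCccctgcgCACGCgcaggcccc
The LDHA stretch of 75 bases holds 2 of the 5 matches of its window, and they are the 2 strands of 1 palindrome, CACGTG. HK2 (its second window) and BNIP3 hold 6 matches each, and PFKFB3 holds 1.

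Summed reads were 15508179 to 16976909 per library, and 3 reads, the limit that a count of 0 allows, were 0.177 to 0.193 CPM (counts scaled to library size). Markers of the line were as labelled: VIM gave 12507 to 18488 reads and CD44 5303 to 6357, the hormone receptor genes ESR1 and PGR gave at most 7 and 0, and the leukocyte gene PTPRC and the intestinal epithelial gene KRT20 at most 2. ERBB2 gave 1415 to 1542 reads and EPCAM 28 to 61. The endothelial gene PECAM1 gave 54 to 87. Reads of the division gene MKI67 were 6778 in Bulk against 995 (Claret), 689 (eGFP) and 915 (Violet), and those of CCNB1, the mitotic cyclin B1, were 2844, 725, 521 and 617. By the treatment field, the library with 6778 MKI67 reads would be the Claret sort, and that with 915 the un-gated cells. The share of reads in mitochondrial genes was 4.18% in Bulk and 5.06 to 5.48% in the others. The part of these differences in the results below was not tested.

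Members were compared as log2 ratios of TMM-scaled CPM with a prior count of 2. A gene was called when a two-sided exact binomial test of its reads in 2 libraries passed an adjusted p of 0.05 over 14585 genes and the ratio was at least 2-fold. The test compares libraries and covers counting error only, so at these depths the fold decides nearly every call. In a bulk library, fewer cells with a transcript and less transcript per cell cannot be told apart. The 3 comparisons with Bulk share that library, so their likeness is no independent evidence.

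Lactate dehydrogenase, phosphoglycerate mutase and the angiogenic factor VEGFA were the members that differed by at least 2-fold from Bulk in every slow-cycling library, the first 2 lower and VEGFA higher. In Claret, 4 of 38 members were called lower (TPI1, PGAM1, LDHA and PFKFB3), where the background over all genes was 6.72%, and 1 higher (VEGFA; background 11.2%). In eGFP, 2 were lower (PGAM1 and LDHA; background 7.64%) and 2 higher (EPAS1 and VEGFA; 11.9%). In Violet, the same 2 were lower (background 6.91%) and 4 higher (SLC2A3, EPAS1, VEGFA and NDRG1; 11.6%). Called in all 3 were 2 members lower (background 4.93%) and 1 higher (background 8.49%). The counts of members called at 2-fold were therefore of the size of this background or below it in most of these comparisons. That background covers genes down to 1 CPM, and its higher side was smaller among better-expressed genes. With a 10 CPM filter, 612, 681 and 615 of 10112 genes were higher in Claret, eGFP and Violet, and 639, 747 and 715 lower. Beside these, the 4 members higher in Violet stood above the background.

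A 1.5-fold threshold set the members further from the background, on the lower side. In Claret 14 members were at least 1.5-fold lower (background 16.7%) and 4 higher (19.8%). In eGFP these were 12 (background 17.9%) and 4 (20.5%). In Violet they were 8 (background 16.6%) and 5 (20.8%). The 8 members lower in all 3, beside a background of 12.7%, were GPI, TPI1, PGAM1, PKM, LDHA, PFKFB3, PFKFB4 and EGLN1, of which 7 act in glycolysis or its control and EGLN1 is an oxygen sensor. The 4 members higher in all 3, beside a background of 15.5%, were SLC2A3, EPAS1, VEGFA and NDRG1, none of them a glycolytic enzyme.

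**Figure D1:**
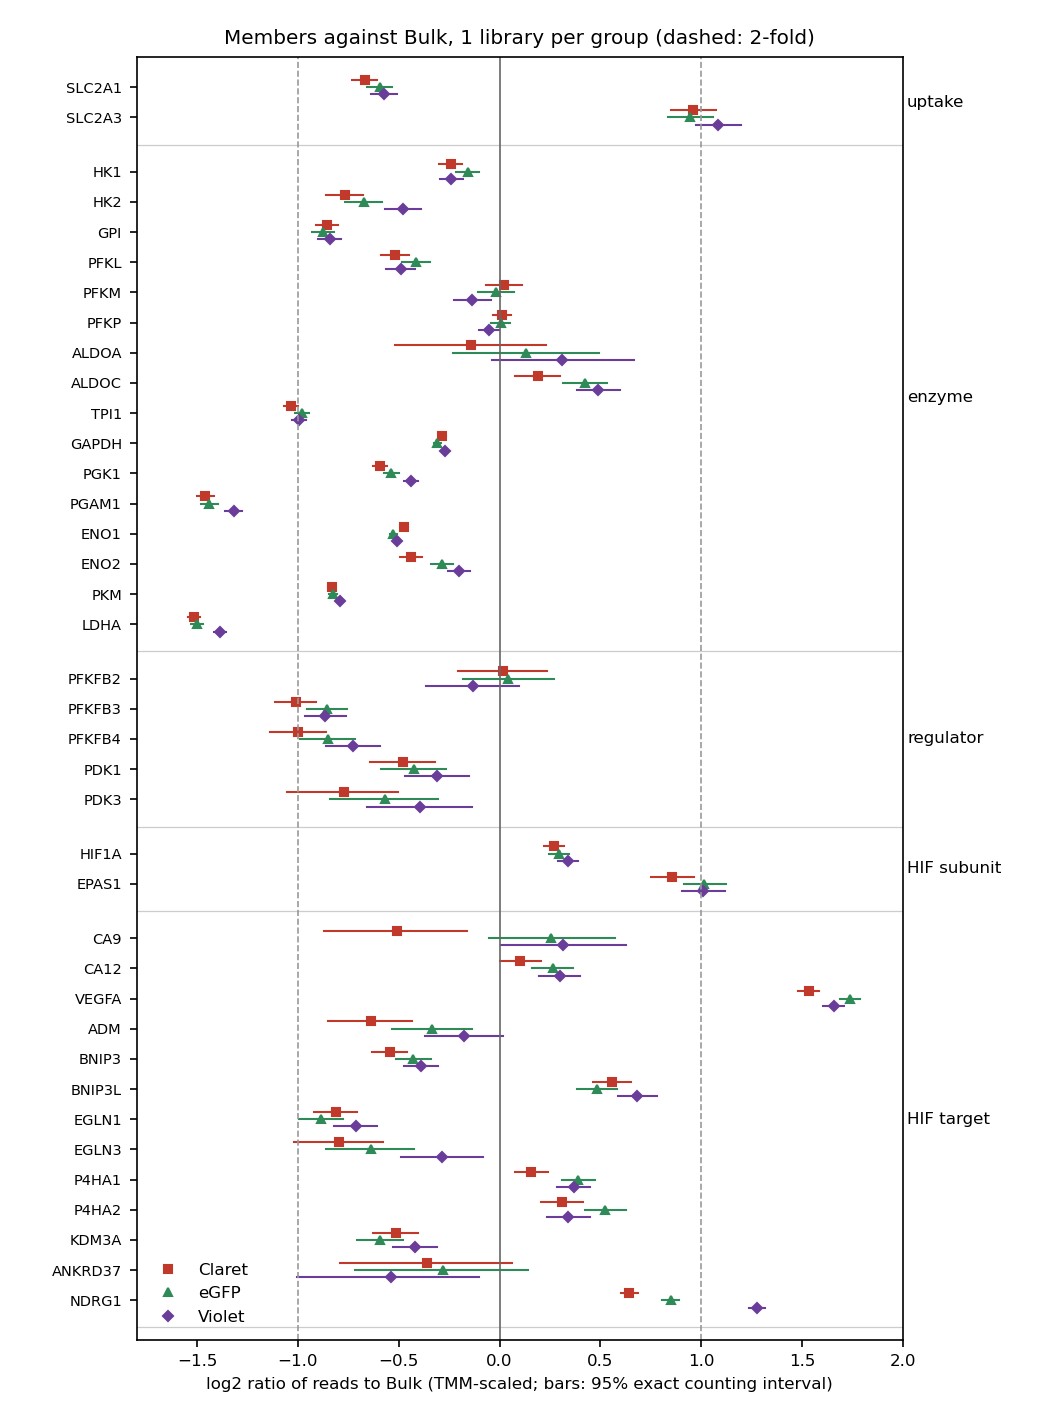
Log2 ratio of reads to Bulk for each of the 38 genes in the Claret, eGFP and Violet libraries, grouped by class, with 95% exact counting intervals as bars (1 library per group) and dashed lines at 2-fold. LDHA and PGAM1 lie beyond 2-fold on the left and VEGFA beyond it on the right in all 3 libraries, whereas HIF targets stand on both sides of 0.

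Glucose entry was split between the 2 transporters. SLC2A1 (GLUT1, the widespread basal glucose transporter, chr1:42925375-42959176) had 5154 reads in Bulk against 3497 (Claret), 3442 (eGFP) and 3461 (Violet). Its log2 ratios to Bulk were -0.67 (95% interval -0.73 to -0.61), -0.59 and -0.57, short of 2-fold. SLC2A3 (GLUT3, a transporter of high affinity for glucose, ENSG00000059804, chr12:7919230-7936275) had 976, 2048, 1897 and 2070 reads in the same order. It was lowest in Bulk and nearly level among the slow-cycling libraries, at 1.95-fold, 1.92-fold and 2.12-fold of Bulk, so that only the Violet value passed the threshold. That call rests on a ratio near 2-fold and was lost on the scale of log2(FPKM + 1), at 0.97.

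Per gene length, SLC2A1 stayed the more abundant transporter. The authors' FPKM (fragments per kilobase of gene, scaled to a total per library) was 70.2 for SLC2A1 and 10.2 for SLC2A3 in Bulk, and 45.6 and 20.9 in Violet. The totals implied by the FPKM were 96.9% (Bulk), 99.97% (Claret), 100.7% (eGFP) and 103.5% (Violet) of the summed reads. Here and below, FPKM as a percentage of Bulk is therefore on a slightly different scale from the log2 ratios. SLC2A1 made up 75% of the summed FPKM of the 12 SLC2A genes listed in Bulk, against 57% (Claret), 57.1% (eGFP) and 55.8% (Violet). The SLC2A3 share was 10.9% in Bulk and 25.6%, 24.1% and 25.6% in the others. The summed FPKM of the family was 81.7%, 85.3% and 87.4% of Bulk, which is a smaller difference than that of either transporter. SLC2A3 has a near-identical neighbour, SLC2A14, and reads shared by the pair could have been assigned to either.

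Of the first stage of the pathway, where glucose is phosphorylated and cleaved, no enzyme was called at 2-fold. HK1, the hexokinase of most tissues, had 5492 reads in Bulk against 5003 (Claret), 4962 (eGFP) and 4649 (Violet). HK2, the inducible hexokinase of muscle and many tumours, had 2489, 1577, 1574 and 1784. HK2 was the more reduced of the 2, with log2 ratios of -0.77, -0.67 and -0.48 against -0.24, -0.16 and -0.24 for HK1. HK1 accordingly held 67.9% of hexokinase FPKM in Bulk and 75.1%, 75.1% and 71.3% in the slow-cycling libraries.

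GPI, which isomerizes glucose 6-phosphate to fructose 6-phosphate, had 7492 reads in Bulk against 4467 (Claret), 4117 (eGFP) and 4173 (Violet). All 3 were close to each other and far below Bulk, at log2 ratios of -0.85, -0.88 and -0.84. Phosphofructokinase commits the sugar to glycolysis, and its 3 isoforms differed. PFKL, the liver type, had 3948, 2970, 2987 and 2808 reads (log2 -0.52, -0.41 and -0.49). PFKP, the platelet type, had 7314, 7946, 7405 and 7048 reads, with log2 ratios of 0.01, 0.01 and -0.05, within 0.10 of Bulk over the whole of each interval. PFKM, the muscle type, had 2006, 2195, 2001 and 1826, at 0.02, -0.02 and -0.13. PFKP, the most abundant isoform by FPKM, thus lay next to Bulk while most neighbouring enzymes were lower, and the sign of the values nearest 0 for PFKP and PFKM changed with the scaling.

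Aldolase cleaves the 6-carbon sugar. ALDOC, the brain isoform, was the 1 enzyme above Bulk in all 3 libraries, with 1197 reads in Bulk against 1471 (Claret), 1621 (eGFP) and 1680 (Violet) (log2 0.19, 0.42 and 0.49). ALDOA, the main isoform of most cells, gave 124, 121, 137 and 154 reads. That is far below its neighbours in the pathway, and the ALDOA row (chr16:30064164-30070457) shares 42.3% of its exon bases on the same strand with AC093512.2, an overlapping protein-coding gene model that itself had 62, 30, 26 and 33 reads. The ALDOA values are therefore uncertain and its intervals all include 0 (Claret -0.52 to 0.23).

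The second stage of the pathway, from triose phosphate to lactate, was below Bulk throughout. TPI1, triose phosphate isomerase (ENSG00000111669, chr12:6867119-6870948), had 19554 reads in Bulk against 10302 (Claret), 10001 (eGFP) and 9811 (Violet). The 3 slow-cycling libraries were almost level at 2.05-fold, 1.97-fold and 1.99-fold below Bulk, and only the first passed 2-fold. GAPDH, the dehydrogenase that makes the first NADH, had 56144, 49694, 45716 and 46496 reads. Its log2 ratios of -0.28, -0.31 and -0.27 were among the smallest of this stretch, although GAPDH was the most abundant member per length, at 1212 FPKM in Bulk. PGK1, which makes the first ATP of the pathway, had 15770, 11261, 10971 and 11632 reads (log2 -0.59, -0.54 and -0.44).

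PGAM1, the phosphoglycerate mutase (ENSG00000171314, chr10:97426160-97433441), was 1 of the 2 most reduced enzymes. It had 16231 reads in Bulk against 6361 (Claret), 6041 (eGFP) and 6509 (Violet). All 3 slow-cycling libraries were close together and beyond 2-fold, at log2 -1.46 (-1.50 to -1.42), -1.44 (-1.48 to -1.40) and -1.32 (-1.36 to -1.28). The next enzyme, enolase, differed far less. ENO1, the widespread isoform, had 60967, 47345, 42667 and 42787 reads (log2 -0.47, -0.53 and -0.51). ENO2, the neuronal isoform, had 5959, 4738, 4936 and 5180 (-0.44, -0.28 and -0.20). ENO1 kept 86.0 to 88.6% of enolase FPKM in the 4 libraries.

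PKM, pyruvate kinase, which makes the last ATP, had 56846 reads in Bulk against 34385 (Claret), 32360 (eGFP) and 32815 (Violet). The slow-cycling libraries were level, at log2 -0.83, -0.83 and -0.79. Gene counts do not separate the PKM1 and PKM2 splice forms. LDHA, which reduces pyruvate to lactate (ENSG00000134333, chr11:18394388-18408425), had 33794 reads in Bulk against 12732 (Claret), 12037 (eGFP) and 12923 (Violet). It was 2.86-fold, 2.83-fold and 2.61-fold lower than Bulk, with log2 ratios of -1.52 (-1.55 to -1.49), -1.50 (-1.53 to -1.47) and -1.39 (-1.42 to -1.36). In FPKM, LDHA went from 350 in Bulk to 121, 121 and 130. LDHB, the heart isoform that favours lactate oxidation, had 686, 509, 418 and 427 reads and was itself below Bulk. Its share of the LDH FPKM was 4.05% in Bulk and 7.68%, 6.74% and 6.43% in the others, and the summed LDH FPKM was 35.9%, 35.6% and 38% of Bulk.

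**Figure D2:**
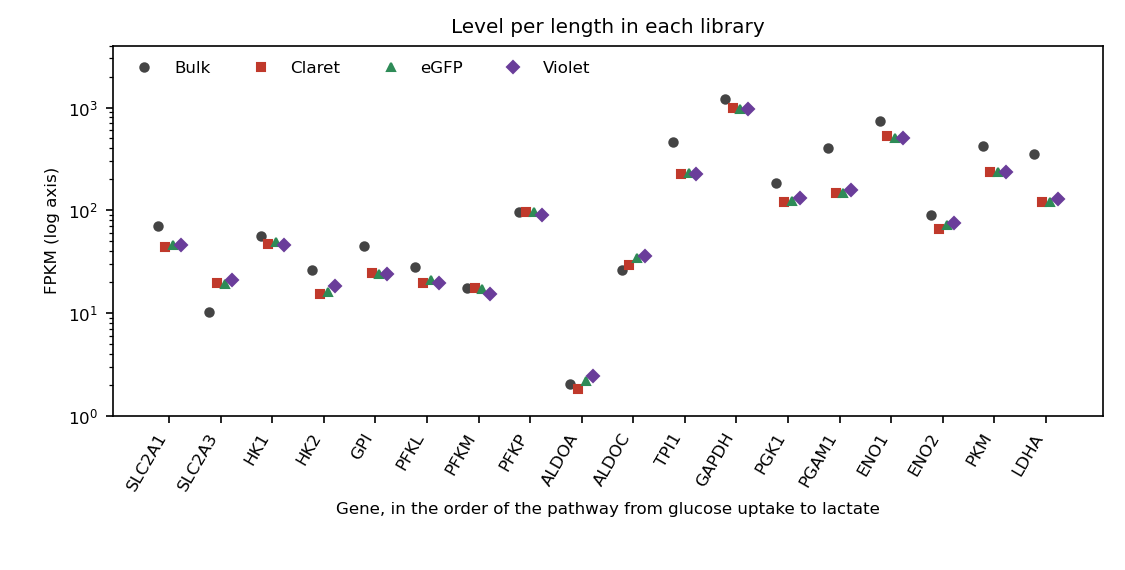
The authors' deposited FPKM (log axis) of the transporters and enzymes in pathway order, 1 point per library. PGAM1 and LDHA show the widest gaps between Bulk and the other 3 libraries, PFKP and PFKM show almost none, and SLC2A3 and ALDOC have Bulk lowest.

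Together the 16 enzymes held 1.84% of all reads in Bulk (exact 95% interval 1.84 to 1.85%), 1.19% (Claret), 1.19% (eGFP) and 1.24% (Violet). These shares were 64.8%, 64.8% and 67.3% of the Bulk share. Without LDHA and PGAM1, a choice made after their values were seen, they were 70.6%, 70.6% and 72.8%. The reduction in summed reads was thus spread over other abundant enzymes as well. The sums take in the uncertain ALDOA row, of 121 to 154 reads per library, and the counting interval does not cover that.

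The regulatory kinases leaned the same way as the enzymes. PFKFB3, which makes fructose 2,6-bisphosphate, the activator of phosphofructokinase (ENSG00000170525, chr10:6144934-6254644), had 2250 reads in Bulk against 1204 (Claret), 1255 (eGFP) and 1235 (Violet). The 3 were nearly level at 2.01-fold, 1.81-fold and 1.82-fold below Bulk. The Claret call was lost with library-size scaling, at log2 -0.98, and on the scale of log2(FPKM + 1), at -0.97. PFKFB4, a related kinase, had 1220, 657, 682 and 737 reads (log2 -1.0, -0.85 and -0.72), just short of the threshold in Claret. A correction for GC content took the Claret value past the threshold, at -1.05. PFKFB2, the isoform of heart, had 325, 354, 338 and 296, with intervals that all include 0 (Claret -0.21 to 0.24). The summed FPKM of the PFKFB family was 51.9%, 56.9% and 56.8% of Bulk.

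Pyruvate dehydrogenase kinases inactivate pyruvate dehydrogenase in the mitochondrial matrix and so limit the conversion of pyruvate to acetyl-CoA. PDK1, a HIF target, had 741 reads in Bulk against 572 (Claret), 556 (eGFP) and 597 (Violet) (log2 -0.48, -0.43 and -0.31). PDK3 had 286, 180, 194 and 217 (-0.77, -0.57 and -0.39), with a wide interval of -1.05 to -0.50 in Claret. Both were nearest to Bulk in Violet, and neither was called. Within the family, the share of PDK4, an isoform induced by fasting, was 10.4% of FPKM in Bulk against 24.1%, 21.0% and 24.5% in Claret, eGFP and Violet, on 81, 181, 131 and 185 reads.

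The alpha subunits were above Bulk. HIF1A, the general alpha subunit, had 5832 reads in Bulk against 7569 (Claret), 7217 (eGFP) and 7368 (Violet), which is 1.20-fold, 1.23-fold and 1.26-fold. EPAS1 (HIF-2 alpha, ENSG00000116016, chr2:46293667-46386703) had 1109, 2166, 2264 and 2233 reads. All 3 slow-cycling libraries were close to 2-fold, at log2 0.86 (0.75 to 0.96), 1.02 (0.91 to 1.12) and 1.01 (0.91 to 1.12), so that eGFP and Violet passed the threshold and Claret did not. The eGFP and Violet calls were lost with a correction for GC content, at 0.98 and 0.96, and on the scale of log2(FPKM + 1), at 0.92 and 0.90. EPAS1 made up 11.8% of the summed HIF alpha FPKM in Bulk and 16.8%, 18.1% and 17.6% in the others. HIF activity is set mainly by the stability of these proteins, which transcript levels do not measure.

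Among the secreted targets, VEGFA and ADM stood on opposite sides of Bulk. VEGFA, the main angiogenic growth factor (ENSG00000112715, chr6:43770184-43786487), had 3990 reads in Bulk against 12445 (Claret), 13419 (eGFP) and 12575 (Violet). Each slow-cycling library held about 3 times the Bulk value, at 2.89-fold, 3.33-fold and 3.15-fold, with log2 ratios of 1.53 (1.48 to 1.58), 1.74 (1.69 to 1.79) and 1.66 (1.61 to 1.71). ADM, the vasodilator peptide adrenomedullin, had 475, 328, 380 and 420 reads. It was lowest in Claret (log2 -0.64, interval -0.85 to -0.44) and nearest to Bulk in Violet (-0.18, interval -0.37 to 0.02).

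The carbonic anhydrases, which handle acid at the cell surface, were weakly different. CA12 had 1450 reads in Bulk against 1679 (Claret), 1755 (eGFP) and 1781 (Violet) (log2 0.10, 0.26 and 0.30). CA9, a classical marker of hypoxic tumour cells (ENSG00000107159, chr9:35673856-35681159), had 159, 120, 192 and 198 reads. It was below Bulk in Claret (log2 -0.51, interval -0.87 to -0.16), and above it in eGFP (0.26, -0.05 to 0.57) and Violet (0.31, 0.01 to 0.63). CA9 shares 38.5% of its exon bases with ARHGEF39 on the opposite strand, which had 238 reads in Bulk against 94 (Claret), 96 (eGFP) and 83 (Violet). The use of strand in counting was not given in the sources used here, so reads of the pair could not be told apart.

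The 2 mitophagy receptors exchanged rank. BNIP3 had 2574 reads in Bulk against 1901 (Claret), 1930 (eGFP) and 1963 (Violet) (log2 -0.54, -0.43 and -0.39). BNIP3L (NIX) had 1454, 2305, 2051 and 2332 (0.56, 0.48 and 0.68). BNIP3 made up 58.9% of the FPKM of the pair in Bulk and 40.0%, 43.2% and 40.5% in the others, so the more abundant receptor was BNIP3 in Bulk and BNIP3L in each slow-cycling library. The sum of the pair was 99.5%, 99.4% and 107% of Bulk.

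**Figure D3:**
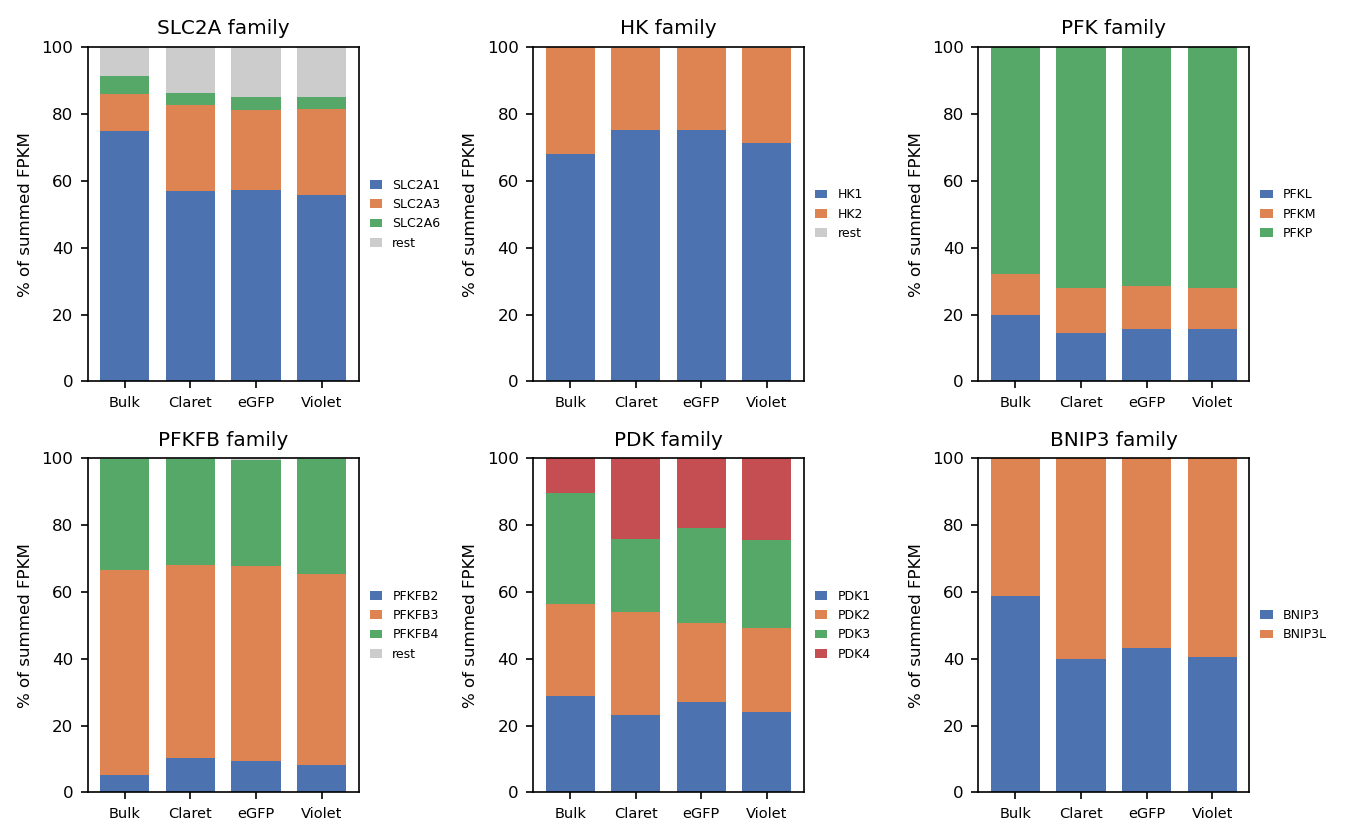
Share of each gene in the summed FPKM (authors' deposited values) of its family, 1 bar per library, where genes under 5% in every library are drawn as the rest. The SLC2A3, PDK4 and BNIP3L segments are wider in the 3 slow-cycling libraries than in Bulk, and the phosphofructokinase panel is nearly even.

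The prolyl hydroxylases that feed back on HIF were below Bulk. EGLN1 (PHD2), the main oxygen sensor, had 1963 reads in Bulk against 1204 (Claret), 1073 (eGFP) and 1196 (Violet) (log2 -0.81, -0.88 and -0.71). EGLN3 (PHD3) had 444, 275, 287 and 364 (-0.79, -0.64 and -0.28), so that Violet lay nearest to Bulk. The summed EGLN FPKM was 55.6%, 54.6% and 62.2% of Bulk. The collagen prolyl hydroxylases, enzymes of the same chemistry but with collagen as substrate, stood on the other side. P4HA1 had 2241, 2693, 2965 and 2888 reads (log2 0.16, 0.39 and 0.37), and P4HA2 had 1313, 1754, 1904 and 1663 (0.31, 0.52 and 0.34).

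NDRG1, a gene of growth arrest and differentiation that hypoxia induces (ENSG00000104419, chr8:133237171-133302022), had 7020 reads in Bulk against 11817 (Claret), 12746 (eGFP) and 17010 (Violet). All 3 were above Bulk but unequal, at log2 0.64 (0.60 to 0.69), 0.85 (0.81 to 0.89) and 1.28 (1.24 to 1.32), and only Violet was called. KDM3A, a histone H3 lysine 9 demethylase, had 1587, 1196, 1061 and 1186 reads (-0.52, -0.59 and -0.42). ANKRD37 had 104, 87, 86 and 71, with intervals that include 0 in Claret (-0.79 to 0.06) and eGFP (-0.72 to 0.14). ANKRD37 shares 35.2% of its exon bases with UFSP2 on the opposite strand (358, 409, 371 and 399 reads), so its count is uncertain as well.

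Set side by side, the enzymes lay mostly below Bulk, and the HIF targets outside glycolysis lay on both sides. Of the 16 enzymes, 12 were below Bulk in all 3 libraries, 1 (ALDOC) above in all 3 and 3 (PFKM, PFKP and ALDOA) of mixed sign. Of the 13 HIF targets, 6 were below (ADM, BNIP3, EGLN1, EGLN3, KDM3A and ANKRD37), 6 above (CA12, VEGFA, BNIP3L, P4HA1, P4HA2 and NDRG1) and 1 (CA9) mixed. Over all genes kept, 42.8% were below and 42.6% above in all 3. At 1.5-fold, 7, 6 and 5 enzymes were lower in Claret, eGFP and Violet and 0 higher, while 3, 3 and 1 of the HIF targets were lower and 2, 2 and 3 higher. Over all genes these shares were 16.7%, 17.9% and 16.6% lower and 19.8%, 20.5% and 20.8% higher, so the counts of HIF targets were near the background or, for the lower ones in Violet, under it.

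The median log2 ratio of the enzymes was -0.50 (Claret), -0.47 (eGFP) and -0.46 (Violet), with ranges of -1.52 to 0.19, -1.50 to 0.42 and -1.39 to 0.49. The median over all genes was -0.01, -0.01 and 0.01, and over the 2259 genes of at least 100 CPM it was -0.05, -0.05 and -0.06. For the HIF targets the medians were -0.36, 0.26 and 0.30, with ranges of -0.81 to 1.53, -0.88 to 1.74 and -0.71 to 1.66. The HIF target median exceeded that of the enzymes by 0.14 (Claret), 0.73 (eGFP) and 0.76 (Violet). The negative Claret median of the HIF targets is the value of ANKRD37 itself, and without ALDOA, CA9 and ANKRD37, the 3 members whose exons overlap another gene most, it was 0.10 and the difference 0.62. The eGFP median is the value of CA9 (interval -0.05 to 0.57), and without the same 3 members it was 0.26 and the difference 0.79. With 6 targets below and 6 above Bulk in all 3 libraries, the sign of CA9 set the side of each median. With groups taken from the treatment field, the difference in Claret was -0.76 and those in eGFP and Violet were -0.12 and -0.02. The contrast between the 2 classes thus rests on the titles and column names.

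By summed reads, the HIF targets outside glycolysis held 0.155% of the Bulk library and 0.223%, 0.251% and 0.281% of Claret, eGFP and Violet, or 144%, 163% and 182% of the Bulk share. VEGFA and NDRG1 account for nearly all of that increase. Without them, a choice made after their values were seen, the remaining 11 held 92.9%, 100.5% and 106% of the Bulk share. The regulators held 0.0301% of Bulk and 0.0175%, 0.0191% and 0.0199% of the others.

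**Figure D4:**
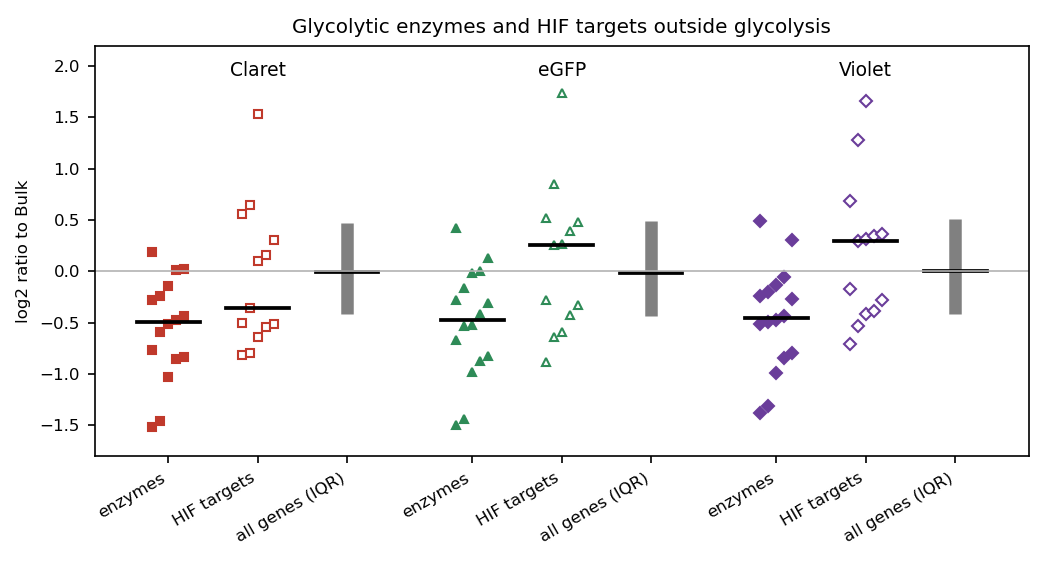
Log2 ratio to Bulk of each of the 16 enzymes (filled) and 13 HIF targets outside glycolysis (open) in each slow-cycling library, with medians as black lines and, in grey, the middle 50% of all 14585 genes. The enzymes lie mostly below 0, and the HIF targets spread from below -0.5 to above 1.5 around a median that is negative in Claret and positive in eGFP and Violet.

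The slow-cycling libraries resembled each other far more than any of them resembled Bulk. No member was called at 2-fold between Claret and eGFP (background 0.761%), between Claret and Violet (0.802%) or between eGFP and Violet (1.01%). At 1.5-fold, CA9 differed between Claret and eGFP (background 1.77%), CA9 and NDRG1 differed between Claret and Violet (1.95%), and no member did between eGFP and Violet (2.36%). CA9 was lower in Claret than in eGFP by log2 -0.76 (adjusted p = 0.00011) and than in Violet by -0.82 (adjusted p = 1.4e-05), both from the exact binomial test with Benjamini-Hochberg adjustment over all genes. Both CA9 values carry the overlap with ARHGEF39 described above. NDRG1 was lower in Claret than in Violet by -0.63, and than in eGFP by -0.20.

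Smaller gaps of the same direction were frequent in Claret. Of the 38 members, 29 lay below 0 for Claret minus eGFP, 33 for Claret minus Violet and 26 for eGFP minus Violet, beside 49.5%, 49.6% and 50.1% of all genes. The median gaps were small, at -0.08, -0.13 and -0.04. With library-size scaling the counts were 29, 33 and 29, and with DESeq2 size factors 29, 31 and 26. Of the 13 HIF targets, 12 lay below 0 for Claret minus Violet, with EGLN3 at -0.51 (adjusted p = 0.00018) and ADM at -0.46 (adjusted p = 0.00022) in the same exact test. Each library enters 2 of these 3 pairs, so the pairs are not independent.

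Other genes of these pathways came from 7 lists of 99 genes, chosen with earlier results of these data known. Over all genes, 11.2%, 11.9% and 11.6% were called higher and 6.72%, 7.64% and 6.91% lower in Claret, eGFP and Violet, which is the background for the counts below. Of 26 further genes of glycolysis and sugar transport, 13 passed the filter on low counts, 2 to 3 were called higher in each library and 0 lower, with medians of -0.04, 0.15 and -0.17. Those higher in all 3 were SLC2A10, a facilitative transporter with 100, 296, 287 and 317 reads in Bulk, Claret, eGFP and Violet, and SLC2A11, another of the family, with 62, 236, 251 and 201. All 7 genes of the pentose phosphate pathway list were measured, with medians of 0.06, -0.12 and -0.00.

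Of 6 genes of gluconeogenesis 2 passed the filter, and PCK2, the mitochondrial enzyme that makes phosphoenolpyruvate from oxaloacetate, was the 1 called. It had 683 reads in Bulk against 4801 (Claret), 3917 (eGFP) and 4034 (Violet), 6.51-fold, 5.67-fold and 5.90-fold of Bulk. The 9 genes of the pyruvate dehydrogenase complex and mitochondrial pyruvate carrier list had no call in any library (medians -0.23, -0.27 and -0.35), and of the 9 genes of glycogen 2, 1 and 1 were called higher and 0 lower, none of them in all 3 (medians -0.12, -0.15 and -0.19). Of 8 HIF partners and inhibitors, 7 passed the filter, with 0 higher and 2, 1 and 0 lower (medians -0.14, -0.10 and -0.05).

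A wider list of 34 HIF targets, of which 33 passed the filter, was mixed as well. In Claret, eGFP and Violet, 5, 7 and 7 were called higher and 4, 2 and 1 lower, with medians of 0.09, 0.11 and 0.32. The higher counts stood above the background in each library, that of Claret by little, and the lower counts stood above it in Claret and below it in eGFP and Violet. Because the list was chosen with earlier results of these data known, this comparison is a description and not a test. Those higher in all 3 included DDIT4, an inhibitor of mTORC1 (log2 2.57, 2.54 and 2.52), STC2, a secreted glycoprotein (2.06, 1.79 and 2.13), RORA, a nuclear receptor (1.31, 1.88 and 1.74), and TXNIP. TXNIP, a glucose-responsive gene that restrains glucose uptake, had the widest difference of them, with 1657 reads in Bulk against 26000 (Claret), 27931 (eGFP) and 19542 (Violet), or 14.5-fold, 16.7-fold and 11.8-fold. The 1 gene lower in all 3 was TFRC, the transferrin receptor, with 10281, 1767, 1609 and 1490 reads (log2 -2.65, -2.69 and -2.78). Several of these genes have regulators other than HIF, including those of amino acid stress, glucose and iron.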

How the data were processed

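Per the labels' protocols, RNA came from a TRIzol extraction and libraries from a NEBNext Ultra kit. Reads were processed with HISAT2 2.0.5 and featureCounts 1.5.0-p3, per the submitters' processing notes. Genome build, annotation, use of strand and how multi-mapped reads were counted are not given in the sources used here; start and end of 58724 of 58735 genes equal GENCODE 29 (GRCh38), and coordinates are given in that build. The deposited values are whole-number read counts per gene, not normalized, and FPKM made by the authors from the same counts. The 38 genes, their classes and the 7 further lists were chosen with earlier results of these data known.

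Genes with a mean of at least 1 CPM over the 4 libraries were kept (14585). Libraries were scaled by TMM (edgeR 4.0.16, R 4.3.3), and reads of 2 libraries were compared by a two-sided exact conditional binomial test (SciPy 1.17.1) with Benjamini-Hochberg adjustment over all genes kept. The quasi-likelihood fit of edgeR could not be made, because 1 library per group leaves nothing to estimate the spread from. Intervals are 95% Clopper-Pearson intervals of the read ratio and cover counting error only, since the reads carry no molecular identifiers. The calculation was tested on simulated counts with known folds and counting error only. That checks the arithmetic and does not cover variation between cultures or sorts. All 38 genes may be named. Of the other lists, those called in the same direction in all 3 slow-cycling libraries are named, with family members of at least 5% of their family's FPKM, and MKI67 and CCNB1; 2 genes that this rule selects are not reported here, and genes overlapping a member were named after their counts were seen. Alternatives were library-size and DESeq2 1.42.0 scaling, other filters, a 1.5-fold threshold, log2(FPKM + 1), edgeR's exactTest with an assumed coefficient of variation of 0.2, GC correction, pseudogene reads added to their parent, and groups from the treatment field.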

Additional observations from a re-analysis of the deposited data

Results flagged for a closer look

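The Claret library differed from the other slow-cycling libraries in CA9, by -0.76 on the log2 scale from eGFP and by -0.82 from Violet, past 1.5-fold in the exact test of the reads, on counts of 120, 192 and 198 in the 3 libraries. CA9 shares 38.5% of its exon bases with ARHGEF39 on the opposite strand, and the use of strand is not known, so its count is uncertain. NDRG1 was lower in Claret than in Violet by -0.63, on 11817 against 17010 reads. With 1 library per group, these differences have no replicate check.

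The gene model AC093512.2, which overlaps ALDOA on the same strand and lies outside the measured members, held 62 reads in Bulk, above the 3 reads that a count of 0 allows, and 30, 26 and 33 reads in Claret, eGFP and Violet.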

How the results depend on the processing

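The class medians depended on the groups from the treatment field, and the numbers of members called on that and on the threshold. With the treatment field, the members called higher in Claret were 2, the enzyme median 0.46 and the class difference -0.76. In eGFP 0 were called higher and 0 lower, the enzyme and HIF target medians were -0.040 and -0.16, and the difference -0.12. In Violet 0 and 0 were called, the medians were -0.036 and -0.058, and the difference -0.022. A 1.5-fold threshold gave 4 higher and 14 lower in Claret, 4 and 12 in eGFP, and 8 lower in Violet. The exactTest with an assumed coefficient of variation gave 2 lower in Claret, 1 higher in eGFP and 2 higher in Violet. On log2(FPKM + 1), 1 was higher in eGFP and 2 in Violet. With GC correction 1 was higher in eGFP and the Violet HIF target median was 0.20. Without ALDOA, CA9 and ANKRD37, chosen after seeing the data, the Claret HIF target median was 0.10 and the difference 0.62. Beyond fewer members or samples swapped between groups, the cause was not tested. All 15 counts and medians kept their side with library-size scaling, DESeq2 size factors, no filter, a 10 CPM filter and pseudogene reads added. Of single members, those called kept their sign in every alternative other than groups from the treatment field. Over all genes, the numbers higher and lower in Claret, eGFP and Violet were 1640 and 980, 1731 and 1115, and 1696 and 1008; they were 612 and 639, 681 and 747, and 615 and 715 with a 10 CPM filter, 589 and 619, 633 and 725, and 533 and 742 on log2(FPKM + 1), and 914 and 583, 1043 and 687, and 961 and 620 with the assumed coefficient of variation. No paired analysis was possible because each group holds 1 library, and for the same reason no replicate could be left out. Depth limits ANKRD37, ALDOA and CA9 most, with 71 to 198 reads per library.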
